A study of Mus musculus with 401 samples.

Results

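The 10 genes described here build the machinery of meiotic recombination and synapsis: Sycp1, Sycp2, Sycp3, Hormad1, Hormad2, Spo11, Dmc1, Msh4, Msh5 and Mlh3. They were taken by name, by the Ensembl identifiers of their mouse symbols, from among 43633 gene identifiers in both count tables, and the question was which of their transcripts remain in fully grown oocytes and how these change with age, calorie restriction and hyperovulation. Of the 10, 9 were listed in the table of the first set of samples and all 10 in that of the second. Spo11 was not listed in the first and had no count in the second.

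In the fetal ovary, oocytes pass through meiotic prophase. SPO11 cuts the DNA, the recombinase DMC1 pairs the broken ends with the homologous chromosome, and SYCP1, SYCP2 and SYCP3 build the synaptonemal complex that zips homologues together. HORMAD1 and HORMAD2 coat chromosome axes that are not yet synapsed, the MSH4 and MSH5 pair stabilises recombination intermediates, and MLH3 works in resolving them into crossovers. Recombination is largely complete around birth. The germinal vesicle (GV) oocytes sampled here were arrested at the end of prophase in adult ovaries, so transcripts of these genes are measured long after the process they are known for.

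RamDA-seq, a full-length total RNA method without strand information or molecular identifiers, was applied to single GV oocytes and to the pool of cumulus cells around each. All mice were B6D2F1 (C57BL/6 x DBA/2) females. The first set held young (2 months), middle (9 months) and old (14 months) mice on an ad libitum (AL) diet and CR mice, which were 9 months old and had been under adult-onset calorie restriction, with 16, 14, 16 and 27 oocyte libraries used. The second set held AL mice of 2, 4, 9 and 14 months and AL mice of 2 months without hyperovulation, with 24, 39, 16, 16 and 32 oocyte libraries. Hyperovulation means an injection of equine chorionic gonadotropin or CARD HyperOva before collection. The paper describes it for the young, middle and old mice of the first set. Its methods give it for mice in general, without naming CR mice apart. Only the 2-month group named above is described as without it. Oocytes of 1 mouse are not independent, and the first set came from few animals: 2 mouse labels for young, 4 for middle, 2 for old, of which 1 joins mice, and 3 for CR. The second set had 4 to 8 mouse labels a group. Calls over libraries in oocytes are therefore given again with the counts summed per mouse label.

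Total counts had medians of 1986202 to 2310395 in AL oocyte groups and 3578882 in CR oocytes, whose libraries (2752043 to 4536690) were all deeper than those of middle oocytes (1714476 to 2624876). All 10 oocyte markers were present in each oocyte group. The summed cumulus markers in oocyte libraries, as a percentage of their median in cumulus libraries, had medians of 2.10% in young, 2.54% in middle, 5.90% in old and 2.41% in CR oocytes, with up to 38.3% in an old one, and of 1.30% to 1.72% in the second set. Summed markers of other ovarian and blood cells had medians of 66.7 to 88.1 CPM in oocyte groups, the highest in CR oocytes. Of these 5 markers only 1 or 2 averaged at least 1 CPM in an oocyte group. One middle library labelled oocyte had cumulus markers at 130% of the cumulus median and oocyte markers at 0.797% of the oocyte median, and its complex was left out. The labels of the first set give no plate, so a batch that goes with the diet cannot be told apart from it.

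In GRCm38 (GENCODE vM21) the 5 genes that the results turn on most are Sycp1 (ENSMUSG00000027855) at chr3:102818499-102936100, Sycp2 (ENSMUSG00000060445) at chr2:178345293-178407685, Sycp3 (ENSMUSG00000020059) at chr10:88459569-88473236, Hormad2 (ENSMUSG00000020419) at chr11:4345814-4441105 and Msh4 (ENSMUSG00000005493) at chr3:153857149-153906138. Sequence just upstream of the members is shown for the 4 genes that were higher in CR oocytes both over libraries and over mouse labels, and for Msh4, which was close to Sycp2 in level and was not called. Each run is 220 bases, from 250 to 31 bases before the RefSeq start (GRCm38.p6), read 5′ to 3′ on the gene's strand, and capitals mark matches to the motifs searched: Sycp1 at chr3:102936131-102936350 (minus strand), Sycp2 at chr2:178407689-178407908 (minus), Sycp3 at chr10:88459337-88459556 (plus), Hormad2 at chr11:4441113-4441332 (minus) and Msh4 at chr3:153904922-153905141 (minus).
Sycp1: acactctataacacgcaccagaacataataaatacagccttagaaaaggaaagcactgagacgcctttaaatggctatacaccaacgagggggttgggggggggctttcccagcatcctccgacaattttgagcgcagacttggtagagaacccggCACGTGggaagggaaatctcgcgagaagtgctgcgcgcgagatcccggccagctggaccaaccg
Sycp2: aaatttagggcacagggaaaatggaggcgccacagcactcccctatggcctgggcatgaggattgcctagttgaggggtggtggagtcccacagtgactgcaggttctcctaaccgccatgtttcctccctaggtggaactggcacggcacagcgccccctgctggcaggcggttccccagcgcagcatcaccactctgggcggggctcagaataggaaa
Sycp3: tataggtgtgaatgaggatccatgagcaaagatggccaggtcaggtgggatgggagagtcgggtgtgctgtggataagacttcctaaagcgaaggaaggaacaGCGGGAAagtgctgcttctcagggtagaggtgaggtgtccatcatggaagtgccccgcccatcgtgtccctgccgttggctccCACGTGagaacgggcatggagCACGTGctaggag
Hormad2: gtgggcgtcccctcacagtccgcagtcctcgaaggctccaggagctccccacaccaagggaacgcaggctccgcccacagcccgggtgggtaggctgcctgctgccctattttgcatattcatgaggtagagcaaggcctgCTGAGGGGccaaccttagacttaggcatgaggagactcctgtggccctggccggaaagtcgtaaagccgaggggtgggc
Msh4: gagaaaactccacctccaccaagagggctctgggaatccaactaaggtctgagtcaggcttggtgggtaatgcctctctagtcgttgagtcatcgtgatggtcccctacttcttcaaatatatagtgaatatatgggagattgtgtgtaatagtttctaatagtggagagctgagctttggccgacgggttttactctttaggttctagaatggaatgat

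The motifs were searched on both strands in the same window of 27018 genes, and 9 of the 10 members had a window. The E-box CACGTG was found in 3 members (Sycp1, Sycp3 and Hormad1) and in 5.03% of all windows, and Sycp3 held it 2 times, with first bases at -64 and -43 from the start. The E2F letters TTCCCGC were found in 3 members (Sycp3, Hormad1 and Msh5) and in 3.28% of windows. The letters CNCCTCAG, bound by the meiotic entry factor STRA8, were found in 2 members (Hormad2 and Msh5) against 5.57% of windows, and CCAAT in 2 (Msh5 and Mlh3) against 31.6%. TTGGCGC was found in no member and in 1.74% of windows. Sycp2 and Msh4, the most abundant of the genes, and the rarer Dmc1 held none of these letters. Their windows had 7, 4 and 10 CpG, beside a median of 5 over all windows. These are matches of letters and not measured binding. The RefSeq start of Msh4 lies inside the span that GENCODE gives the gene.

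In oocytes, transcripts of 8 of the 10 genes were found in at least 50% of the libraries of every group. Levels between genes are compared on the deposited RPKM, which divides by gene length. At 2 months in the second set the order was Sycp2 with 7.24 ± 1.51 RPKM (SD, n = 24), Msh4 with 6.55 ± 0.966, Sycp3 with 2.54 ± 1.05, Sycp1 with 0.721 ± 0.453, Dmc1 with 0.560 ± 0.322, Hormad2 with 0.430 ± 0.354, Msh5 with 0.268 ± 0.199, Mlh3 with 0.223 ± 0.141 and Hormad1 with 0.0596 ± 0.144. Sycp2 and Msh4 did not differ beyond their SDs, and neither did any neighbours from Sycp1 down to Hormad1. Sycp2, Msh4 and Sycp3 were the top of the order, in this sequence, in each of the 8 AL oocyte groups.

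Sycp2 and Msh4 were measured in all 200 oocyte libraries used. From here on a level is in CPM. For single libraries, groups and mouse labels this is the read count scaled to library size with TMM factors, computed within each cell type of each set. Pooled levels, the limit of 3 counts and marker sums use total counts without TMM factors. Over the 127 oocytes of the second set Sycp2 had a lowest value of 23.4, a median of 44.0 and a highest of 66.0 CPM, and Msh4 29.2, 42.2 and 59.9 CPM. Both transcripts were thus present in every oocyte. For the rarer genes a single library holds few reads: Hormad2 had at most 16 counts in an oocyte library and Msh5 at most 10. When each library was drawn down to 500000 counts, Sycp2 and Msh4 were still found in 24 of 24 oocytes at 2 months, Sycp3 in 22, Mlh3 in 15, Sycp1 in 14, Hormad2 in 13, Msh5 in 11, Dmc1 in 8 and Hormad1 in 3.

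Hormad1 and Spo11 were the genes at or near 0. Hormad1, found in 1 of 16 young, 4 of 14 middle and 3 of 16 old oocytes, was found in 19 of 27 CR oocytes, which were sequenced more deeply. After drawing down to 500000 counts it was found in 0 of the 16 young, 14 middle and 16 old oocytes and in 3 of the 27 CR ones. Spo11 had 0 of 265258165 counts in the 127 oocytes of the second set, which allows a level of up to 0.0113 CPM by the limit of 3 counts. That limit covers counting error only.

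**Figure D1:**
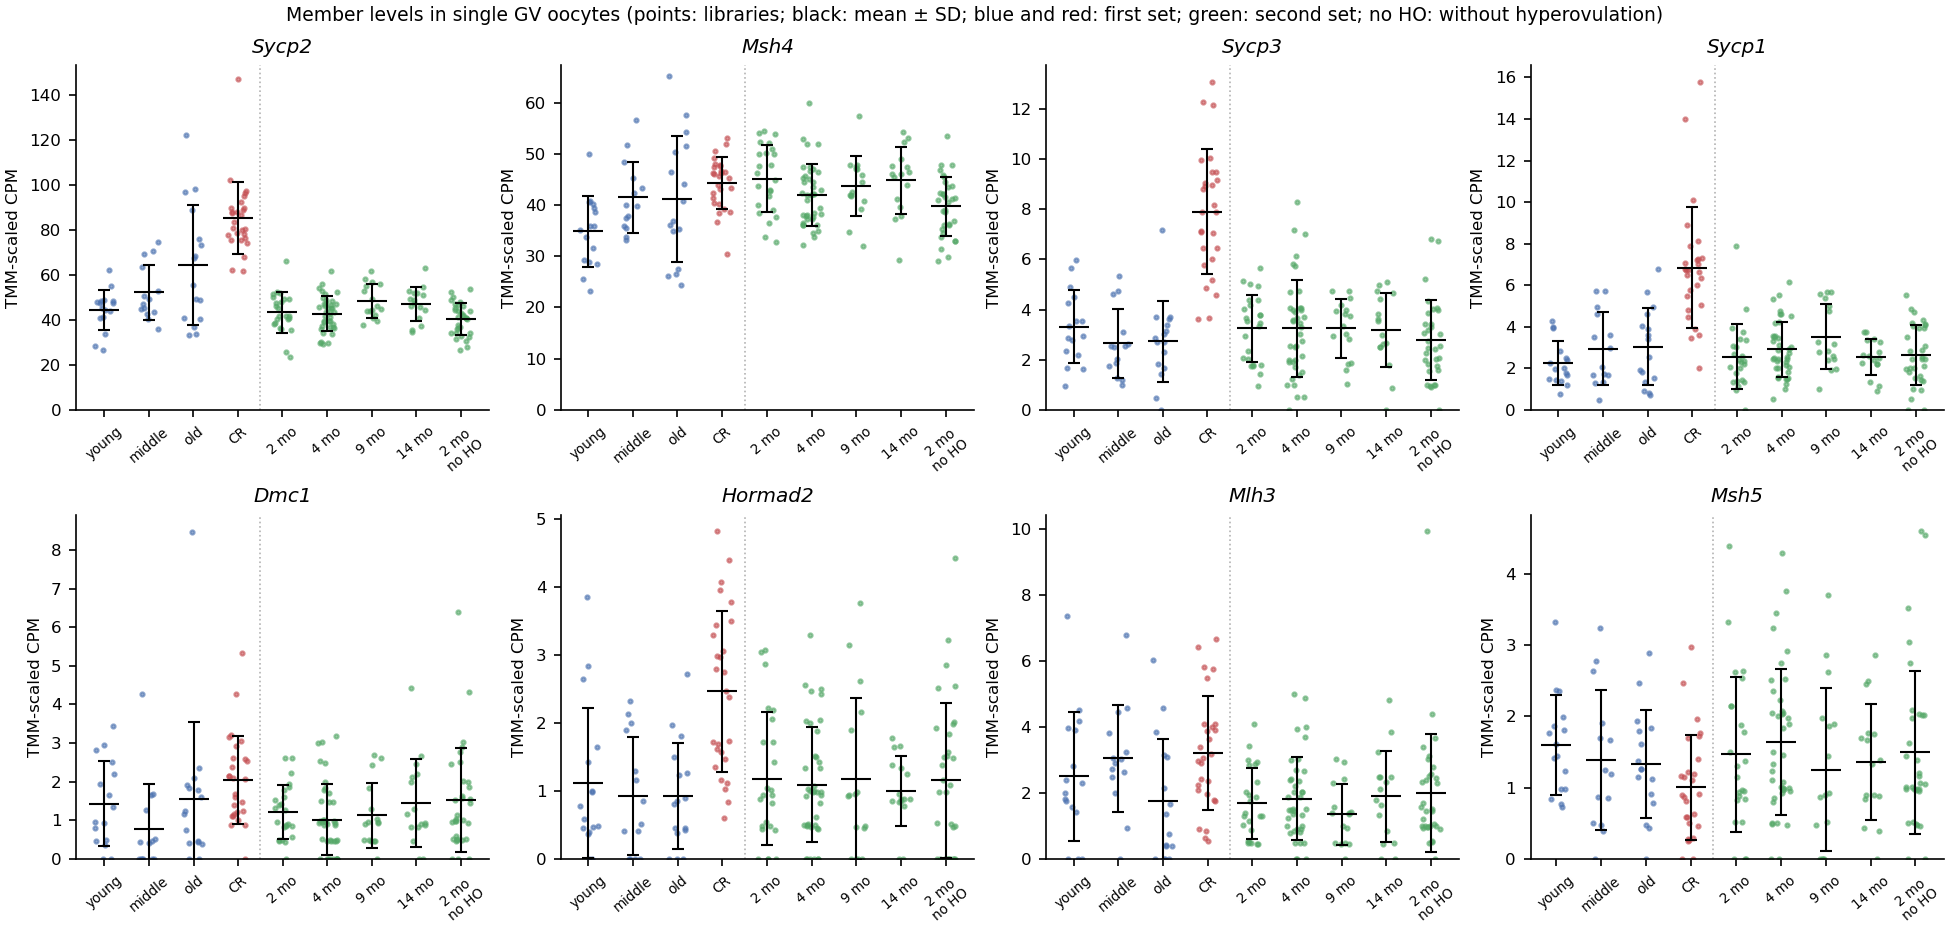
Levels of 8 genes in single GV oocytes: each point is a library, the black bar and whiskers are the mean ± SD of its group, and the y axis is TMM-scaled CPM. The CR oocytes (red) have higher means than the middle oocytes for Sycp2, Sycp3, Sycp1, Hormad2 and Dmc1, while Msh4 lies near 40 CPM in most groups of both sets. The sets were scaled separately.

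Cumulus cells, somatic cells that never enter meiosis, gave the level to set beside the oocytes. Sycp2 and Hormad1 had no count in any of the 199 cumulus libraries used, and Hormad2 had 0 counts in the 71 of the first set and 7 counts in the 128 of the second. Pooled over libraries, the Sycp2 level was 67.9 CPM in oocytes of the first set and 43.6 in those of the second. By the limit of 3 counts over the group, this is at least 2402-fold and 1595-fold higher than in cumulus cells. The pools of the first set include the CR libraries, and CR oocytes gave 8012 of its 13579 Sycp2 counts in oocytes. Mean TMM-scaled Sycp2 was 44.4 CPM in young, 52.2 in middle, 64.4 in old and 85.2 in CR oocytes. Msh4, with 41.3 and 42.7 CPM in oocytes against 0.302 and 0.675 CPM in cumulus cells, was 137-fold and 63.3-fold higher. Both transcripts thus made up a far larger share of reads in oocyte than in cumulus libraries. How their RNA is divided within a complex was not measured.

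The other members split. Pooled Dmc1 was 1.62 and 1.25 CPM in oocytes against 0.151 and 0.264 CPM in cumulus cells, and Sycp3 was 5.22 and 3.13 against 1.61 and 1.25 CPM. CR oocytes gave 744 of the 1044 Sycp3 counts in oocytes of the first set. Mean TMM-scaled Sycp3 was 2.65 to 3.32 CPM in its AL groups and 7.90 CPM in CR oocytes. Of the 1264 exon bases of Sycp3, 660 are shared with the gene Chpt1 on the opposite strand. Chpt1 averaged 44.0 CPM in young cumulus cells and 3.26 CPM in young oocytes, each scaled within its own cell type. The part of reads shared with Chpt1 in these Sycp3 levels, and in their difference between the cell types, was not tested. Mlh3 went the other way, with 2.79 and 1.81 CPM in oocytes against 26.4 and 17.4 CPM in cumulus cells. Sycp1 was 4.71 and 2.80 CPM in oocytes and 7.13 and 5.04 CPM in cumulus cells, and Msh5 was 1.20 and 1.49 against 3.82 and 3.47 CPM. Of the 941 Sycp1 counts in oocytes of the first set, 648 came from CR oocytes. Mean TMM-scaled Sycp1 was 2.24 to 3.03 CPM in the AL groups of this set and 6.85 CPM in CR oocytes. For a cumulus pool, fewer cells and less RNA per cell cannot be told apart. The pooled oocyte level of Mlh3 was 10.5% and 10.4% of the cumulus level, that of Sycp1 66.0% and 55.6%, and that of Msh5 31.4% and 42.8%. Each was above the median cumulus marker percentages given for the oocyte groups, but a pool and a median over libraries are unlike measures. Single libraries reached 14.2% in young, 20.9% in middle, 38.3% in old and 15.5% in CR oocytes, and 2.48% in the second set. The part of carried-over cumulus RNA in these levels was not tested.

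The test of this difference was edgeR's quasi-likelihood F test, with p-values adjusted by Benjamini-Hochberg over all genes tested and a gene called at an adjusted p below 0.05. Of 8 members tested in young mice, 5 were higher in oocytes (Sycp2, Msh4, Hormad2, Sycp3 and Dmc1) and 2 lower (Mlh3 and Sycp1), beside 85.6% of all genes called. At 2 months in the second set the same 5 were higher and Mlh3 and Msh5 lower, beside 88.4% of all genes called. These shares of members lie close to the background. Over mouse labels 6 and 7 members were called, beside 73.5% and 77.7% of all genes. For Sycp3 the log2 difference, oocytes minus cumulus cells, was 1.29 ± 0.29 (SE) in young mice (edgeR adjusted p = 6.4e-05) and 1.80 ± 0.31 at 2 months (edgeR adjusted p = 1.6e-07), and over mouse labels 1.87 ± 0.45 and 2.00 ± 0.35, both called. For Mlh3 it was -2.83 ± 0.26 (edgeR adjusted p = 8.7e-13) and -2.81 ± 0.25 (edgeR adjusted p = 6.3e-16), and over mouse labels -2.30 ± 0.31 and -2.71 ± 0.28, both called. Sycp1 was called only in young mice (-0.79 ± 0.32, edgeR adjusted p = 0.020), where the call was lost with the complex as a block (adjusted p = 0.053), over mouse labels (-0.15, adjusted p = 0.75) and without Young2, which turned it to 0.16. Msh5 was called only at 2 months (-0.74 ± 0.34, edgeR adjusted p = 0.032). This call held over mouse labels (-0.63 ± 0.29, adjusted p = 0.048) and was lost without 2mo1 (adjusted p = 0.12), 2mo34 (0.076), 2mo35 (0.15) or 2mo36 (0.068). The Dmc1 call in young mice was lost without Young2 (1.35, adjusted p = 0.26). Whether the 2 ages or sets differ in this was not tested.

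**Figure D2:**
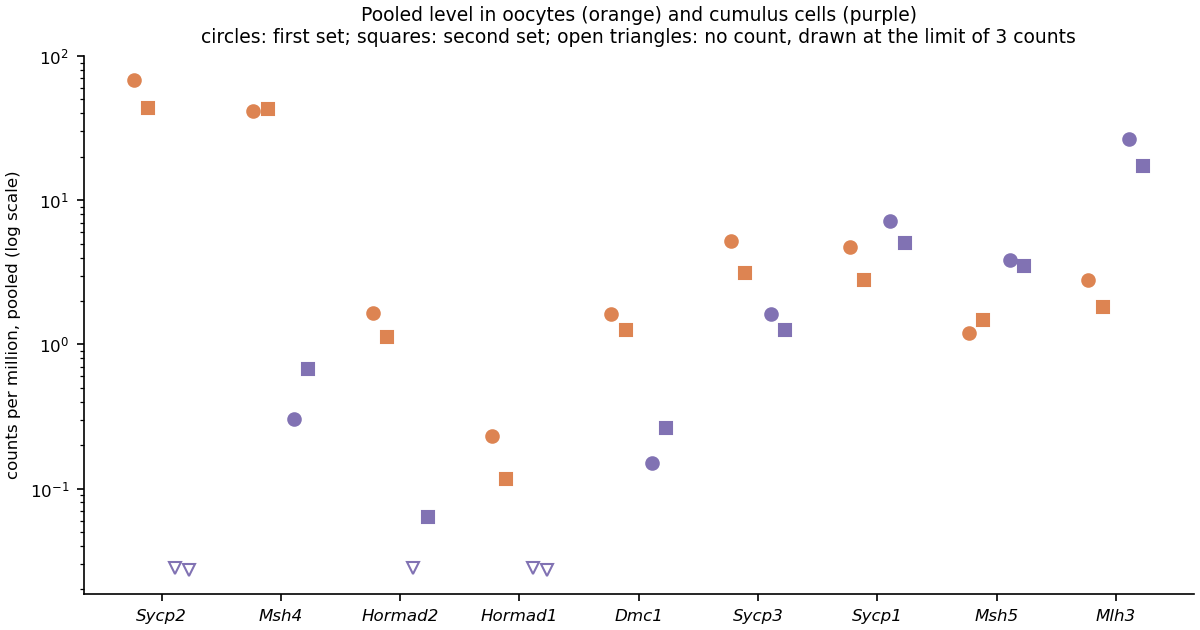
Level of each gene pooled over all oocyte (orange) and all cumulus (purple) libraries of the first set (circles) and second set (squares). The log axis is in CPM of total counts, without TMM factors, and the first set includes the CR libraries. Open triangles are groups with no count, drawn at the limit of 3 counts. Sycp2 and Msh4 lie near 40 to 70 CPM in oocytes and below 1 in cumulus cells, and Mlh3 is the gene with the largest excess in cumulus cells.

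Calorie restriction was the condition with the most calls among the members. In CR oocytes the synaptonemal complex members Sycp1, Sycp2 and Sycp3, the axis gene Hormad2 and the recombinase gene Dmc1 were higher relative to middle oocytes of the same age. The changes ran from 1.63-fold (Sycp2) to 2.94-fold (Sycp3). The crossover members Msh4, Msh5 and Mlh3 were not called. Other genes of the complex and of crossover formation are given below and did not all follow the members. Thus 5 of 9 members tested were higher and 0 lower, beside 30% of all genes called and 15.8% called higher. The median log2 change was 1.20 over the 9 members and 0.00 over all genes. Over mouse labels 4 of the 5, all but Dmc1, were called higher, beside 7.37% of all genes called and 4.36% called higher.

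Sycp2, an axial element protein of the synaptonemal complex, had a lowest value of 36.1, a median of 48.2 and a highest of 74.8 CPM in middle oocytes and 61.9, 83.3 and 147 CPM in CR oocytes. The single libraries overlapped. Summed per mouse label, the middle mice had 44.8, 54.8, 70.8 and 48.9 CPM and the CR mice 110, 85.8 and 79.1 CPM, without overlap. The log2 change was 0.71 ± 0.09 (SE, edgeR adjusted p = 2.9e-08) over libraries and 0.76 ± 0.16 (edgeR adjusted p = 0.016) over mouse labels. Among AL oocytes of the first set the highest Sycp2 value was 122 CPM, in an old oocyte.

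Sycp3, the other axial element gene, ranged from 0.994 to 5.34 CPM with a median of 2.53 in middle oocytes and from 3.61 to 13.1 with a median of 7.90 in CR oocytes. Per mouse label the values were 2.78, 1.62, 4.75 and 3.66 CPM in middle mice and 7.42, 6.92 and 8.84 CPM in CR mice, so that each CR mouse was above each middle mouse. The log2 change was 1.56 ± 0.20 (edgeR adjusted p = 2.2e-08) over libraries and 1.43 ± 0.30 (edgeR adjusted p = 0.014) over mouse labels. Exons of Sycp3 share 660 bases with the lipid synthesis gene Chpt1 on the opposite strand, and 56.4% of the nonzero Sycp3 counts were not whole. Chpt1 also rose in CR oocytes, from a median of 3.52 to 6.41 CPM (log2 change 0.84 ± 0.20, edgeR adjusted p = 0.00070 over libraries and 0.051 over mouse labels). The log2 change of Chpt1 over mouse labels was 0.93 ± 0.26. The part of shared reads in the Sycp3 change was not tested.

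Sycp1, the transverse filament of the complex, ranged from 0.462 to 5.72 CPM with a median of 2.51 in middle oocytes and from 2.01 to 15.8 with a median of 6.73 in CR oocytes. Middle mice had 2.08, 2.58, 5.70 and 3.55 CPM and CR mice 10.5, 6.79 and 6.16 CPM, again without overlap. The log2 change was 1.20 ± 0.24 (edgeR adjusted p = 5.8e-05) over libraries and 1.30 ± 0.31 (edgeR adjusted p = 0.025) over mouse labels. In the cumulus cells of the same mice, where Sycp1 had medians of 6.44 CPM (middle) and 7.23 CPM (CR), its log2 change was -0.09 ± 0.43 (edgeR adjusted p = 0.95).

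Hormad2 rose from a median of 0.681 CPM in middle oocytes, 10 of 14 with a count, to 2.46 CPM in CR oocytes, 27 of 27 with a count. Its log2 change was 1.36 ± 0.35 (edgeR adjusted p = 0.0017) over libraries and 1.39 ± 0.38 (edgeR adjusted p = 0.043) over mouse labels. Mouse labels overlapped here, at 0.694 to 1.90 CPM in middle and 1.81 to 3.17 CPM in CR mice. Its partner Hormad1 had a log2 difference of similar size, 1.38 ± 0.70, on 4 counts in middle and 37 in CR oocytes, and was not called (edgeR adjusted p = 0.070).

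Dmc1 had a median of 0.428 CPM in middle and 2.08 CPM in CR oocytes, a log2 change of 1.40 ± 0.44 (edgeR adjusted p = 0.0093). This call rested on few reads and few mice. The middle group also had the lowest Dmc1 median of the AL oocyte groups, beside 1.16 CPM in young and 1.20 CPM in old oocytes. In the second set the medians ran from 0.920 to 1.10 CPM, with 0.940 CPM at 9 months. The single oocyte of Middle3 had 4.28 CPM, above all 3 CR mice (1.62, 2.16 and 2.00), and the other middle mice had 0.417, 0.736 and 0.215 CPM. Over mouse labels the call was lost (1.18 ± 0.65, edgeR adjusted p = 0.31), as it was without Middle2 (adjusted p = 0.053) or without Middle4 (adjusted p = 0.085).

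Msh4 overlapped between the groups. It ranged from 33.2 to 56.6 CPM with a median of 39.9 in middle oocytes and from 30.4 to 53.2 with a median of 45.8 in CR oocytes, a log2 difference of 0.09 ± 0.07 (edgeR adjusted p = 0.33). Its dimer partner Msh5 had a log2 difference of -0.47 ± 0.37 (edgeR adjusted p = 0.34) and Mlh3 one of 0.08 ± 0.28 (edgeR adjusted p = 0.87). The greater depth of the CR libraries was checked by drawing their counts down, which left all 5 calls in place. The cumulus marker medians were 2.54% in middle and 2.41% in CR oocytes, and the same 5 members were called with the cumulus marker share as a covariate. The 5 summed markers of other ovarian and blood cells (Ptprc, Cd68, Pecam1, Cdh5 and Cyp17a1) ranged from 56.3 to 94.5 CPM with a median of 68.4 in middle oocytes. In CR oocytes they ranged from 66.1 to 103 CPM with a median of 88.1. None of the 5 was at 0 in either group, but only 1 averaged at least 1 CPM in middle oocytes and 2 in CR oocytes. The oocyte sums thus rest mostly on 1 or 2 of the genes. In middle and CR cumulus cells, where 4 of the 5 averaged at least 1 CPM, the sums had medians of 13.1 and 21.4 CPM. The part of RNA of other cells in the member changes was not tested.

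**Figure D3:**
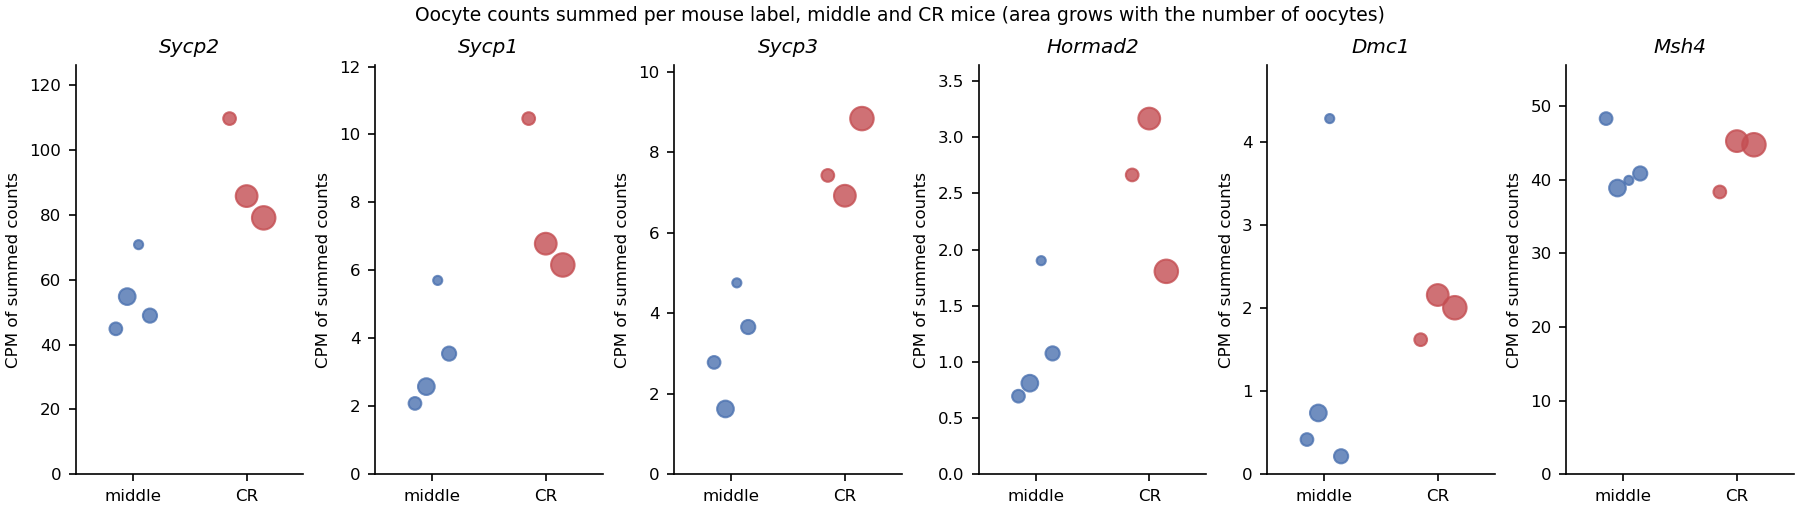
Oocyte counts summed per mouse label in middle (blue) and CR (red) mice, in CPM, with the point area growing with the number of oocytes (1 to 13). For Sycp2, Sycp1 and Sycp3 all 3 CR mice lie above all 4 middle mice, while the middle mouse with a single oocyte has the highest Dmc1 value and Msh4 overlaps.

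With age, 1 member was called in oocytes of the first set and 0 in those of the second. In the first set Sycp2 had a lowest value of 26.7, a median of 46.3 and a highest of 62.2 CPM in young oocytes and 33.1, 61.6 and 122 CPM in old oocytes. The old oocytes reached further up and overlapped with the young. The log2 change was 0.52 ± 0.17 (edgeR adjusted p = 0.045), the only call among 8 members tested, beside 7.39% of all genes called. Over mouse labels the values were 48.3 and 43.9 CPM in young and 66.2 and 55.3 CPM in old mice, and no member was called (Sycp2 0.34 ± 0.22, edgeR adjusted p = 0.65), beside 0.00756% of all genes. The call was also lost without Young1 (adjusted p = 0.12), Young2 (0.54) or Old1_2 (0.82), with the cumulus marker share as a covariate (0.22) and when all genes with a count in at least 1 library were tested (0.055).

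No member was called by edgeR between young and middle oocytes or between middle and old oocytes, where 0% of all genes were called in each. At an unadjusted p below 0.05 the members numbered 1 and 0, and DESeq2 called 0. The young to middle log2 difference of Msh4 was 0.24 ± 0.10 (edgeR adjusted p = 0.51), from a median of 35.5 to 39.9 CPM.

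The second set measured age again with more mice. The median Sycp2 level was 41.7 CPM at 2 months, 43.5 at 4, 45.6 at 9 and 48.1 at 14 months, within ranges that overlapped throughout (23.4 to 66.0, 29.5 to 61.7, 37.6 to 61.7 and 34.4 to 62.8 CPM). Between 2 and 14 months its log2 difference was 0.12 ± 0.09 (edgeR adjusted p = 0.59). For Msh4 the medians were 45.5, 41.9, 43.5 and 46.1 CPM, with a difference of -0.01 ± 0.07 between 2 and 14 months (edgeR adjusted p = 0.98). Sycp3 differed by -0.04 ± 0.22 and Sycp1 by 0.00 ± 0.24 on the log2 scale over the same ages.

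Of 9 members tested, edgeR called 0 in each comparison of ages in the second set: 2 with 4 months (0.0126% of all genes called), 2 with 9 (0.16%), 2 with 14 (1.14%), 4 with 14 (0.868%) and 9 with 14 months (0.0136%). At an unadjusted p below 0.05 they numbered 0, 1, 0, 1 and 1. DESeq2 called none of them in these comparisons. The smallest edgeR adjusted p of a member in these comparisons was that of Sycp2 between 4 and 14 months, with a log2 difference of 0.15 ± 0.07 (edgeR adjusted p = 0.39).

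The effect of old age was then compared between the sets, as the 14 against 2 months change of the second set minus the old against young change of the first. For Sycp2 this difference was -0.40 ± 0.18 (edgeR adjusted p = 0.16), and 0 of 9 members were called, beside 5.25% of all genes. At an unadjusted p below 0.05 there was 1. The Sycp2 change of the first set was thus not shown to differ from that of the second.

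With hyperovulation no member was called. Sycp2 had a median of 40.96 CPM without and 41.7 CPM with hyperovulation at 2 months, a log2 difference of 0.09 ± 0.07 (edgeR adjusted p = 0.85). Msh4 had 40.8 and 45.5 CPM, a difference of 0.18 ± 0.06, which was the 1 member at an unadjusted p below 0.05 and had an edgeR adjusted p of 0.38. Of 9 members tested 0 were called by edgeR, beside 0.0299% of all genes, and 0 by DESeq2.

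**Figure D4:**
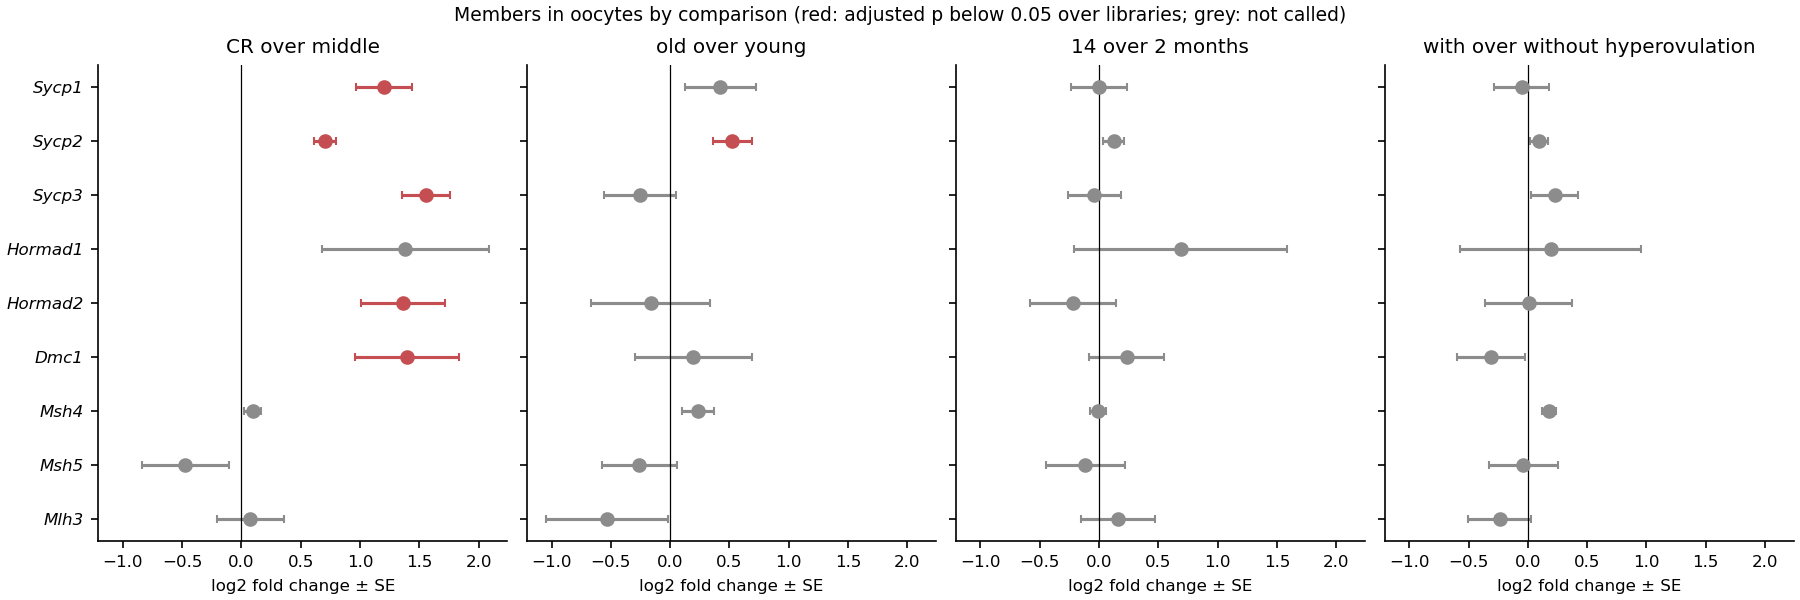
Log2 fold change ± SE of each member in 4 oocyte comparisons, with members called over libraries in red. In CR over middle 5 members are red and lie between 0.71 and 1.56. In the other panels only Sycp2 in old over young is red, and Hormad1 was not tested there.

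In cumulus cells no member was called by edgeR in any of 4 comparisons, with 6 of 10 members tested in each. This was so for young against old (3.96% of all genes called), middle against CR (3.6%), 2 against 14 months (1.7%) and without against with hyperovulation (13.2%). At an unadjusted p below 0.05 the members numbered 1, 0, 1 and 1, and DESeq2 called 0. Mlh3, the most abundant member in cumulus cells, had a small difference: its log2 difference between middle and CR cumulus cells was -0.08 ± 0.22 (edgeR adjusted p = 0.90). Sycp1 was 2.22 CPM at the median with and 4.84 CPM without hyperovulation, a log2 difference of -0.80 ± 0.35 that was not called (edgeR adjusted p = 0.10).

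The change under calorie restriction was set beside 43 other genes of meiotic prophase, grouped by role. Of 38 tested over libraries in CR against middle oocytes, 15 were higher and 4 lower (15.8% of all genes were higher), with a median log2 change of 0.20. Over mouse labels 8 of 40 were higher and 2 lower, beside 4.36% of all genes higher and 7.37% called. Over libraries, genes were called both ways in 3 of the 8 roles, and over mouse labels only in telomere attachment.

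Among double-strand break factors 3 of 7 were higher and 1 lower over libraries, and 2 of 7 higher and 0 lower over mouse labels. Ccdc36, which recruits the break machinery to axes, rose from a median of 5.10 to 12.3 CPM (log2 change 1.19 ± 0.18, edgeR adjusted p = 1.1e-06), though not over mouse labels (adjusted p = 0.057). Its partner Mei4 rose from 4.88 to 9.75 CPM (0.79 ± 0.17, and 0.98 ± 0.27 over mouse labels, adjusted p = 0.045). The Mei4 medians of young and old oocytes, 8.04 and 8.89 CPM, were nearer to the CR than to the middle one. Meiotic cohesins, part of the same axes, had 2 of 3 higher over libraries and 1 of 3 over mouse labels. Smc1b went from a median of 8.72 to 14.9 CPM (0.84 ± 0.12, and 0.88 ± 0.18 over mouse labels, adjusted p = 0.013).

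Of the telomere attachment genes 1 of 4 was higher and 1 lower over libraries, and 1 of 5 was higher and 1 lower over mouse labels, with median log2 changes of -0.29 and -0.53. Terb1, which links telomeres to the nuclear envelope in prophase, rose from a median of 17.8 to 38.7 CPM (1.02 ± 0.09, edgeR adjusted p = 2.1e-12, and 0.95 ± 0.17 over mouse labels, adjusted p = 0.0061). Ccdc155, named after its value was seen, fell from a median of 48.9 to 34.4 CPM (-0.50 ± 0.10, edgeR adjusted p = 0.00015, and -0.53 ± 0.14 over mouse labels, adjusted p = 0.043). Ythdc2, a helicase needed for meiotic entry, rose from 37.98 to 70.6 CPM (0.98 ± 0.08, edgeR adjusted p = 1.0e-12, and 0.94 ± 0.13 over mouse labels, adjusted p = 0.0019). For Ythdc2 the lowest CR oocyte (56.3 CPM) was above the highest middle one (47.4 CPM). Of the crossover genes 4 of 9 were higher and 1 lower over libraries, but over mouse labels 0 were higher and 1 lower. Ccnb1ip1 rose from 4.13 to 8.89 CPM over libraries (0.86 ± 0.24, edgeR adjusted p = 0.0048) and was not called over mouse labels (adjusted p = 0.25). The lower one in both tests was Mus81, an endonuclease gene named after its value was seen (-0.51 ± 0.06, and -0.53 ± 0.11 over mouse labels, adjusted p = 0.011). The central element of the synaptonemal complex, which sits between the SYCP1 filaments, had 0 of 3 higher and 1 lower (Syce2, chosen after its value was seen, -0.25 ± 0.06). Syce2 was not called over mouse labels (adjusted p = 0.19).

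With age, of 38 genes of the list tested, 3 were higher and 0 lower in old than in young oocytes of the first set, and none over mouse labels. The called share of the list, 7.89%, lay close to the 7.39% of all genes. Tex11, a crossover gene, rose from a median of 4.38 to 6.68 CPM (0.80 ± 0.24, edgeR adjusted p = 0.040). In the other age comparisons in oocytes, and with hyperovulation, edgeR called 0 of 38, with 2 to 7 at an unadjusted p below 0.05 in each.

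**Figure D5:**
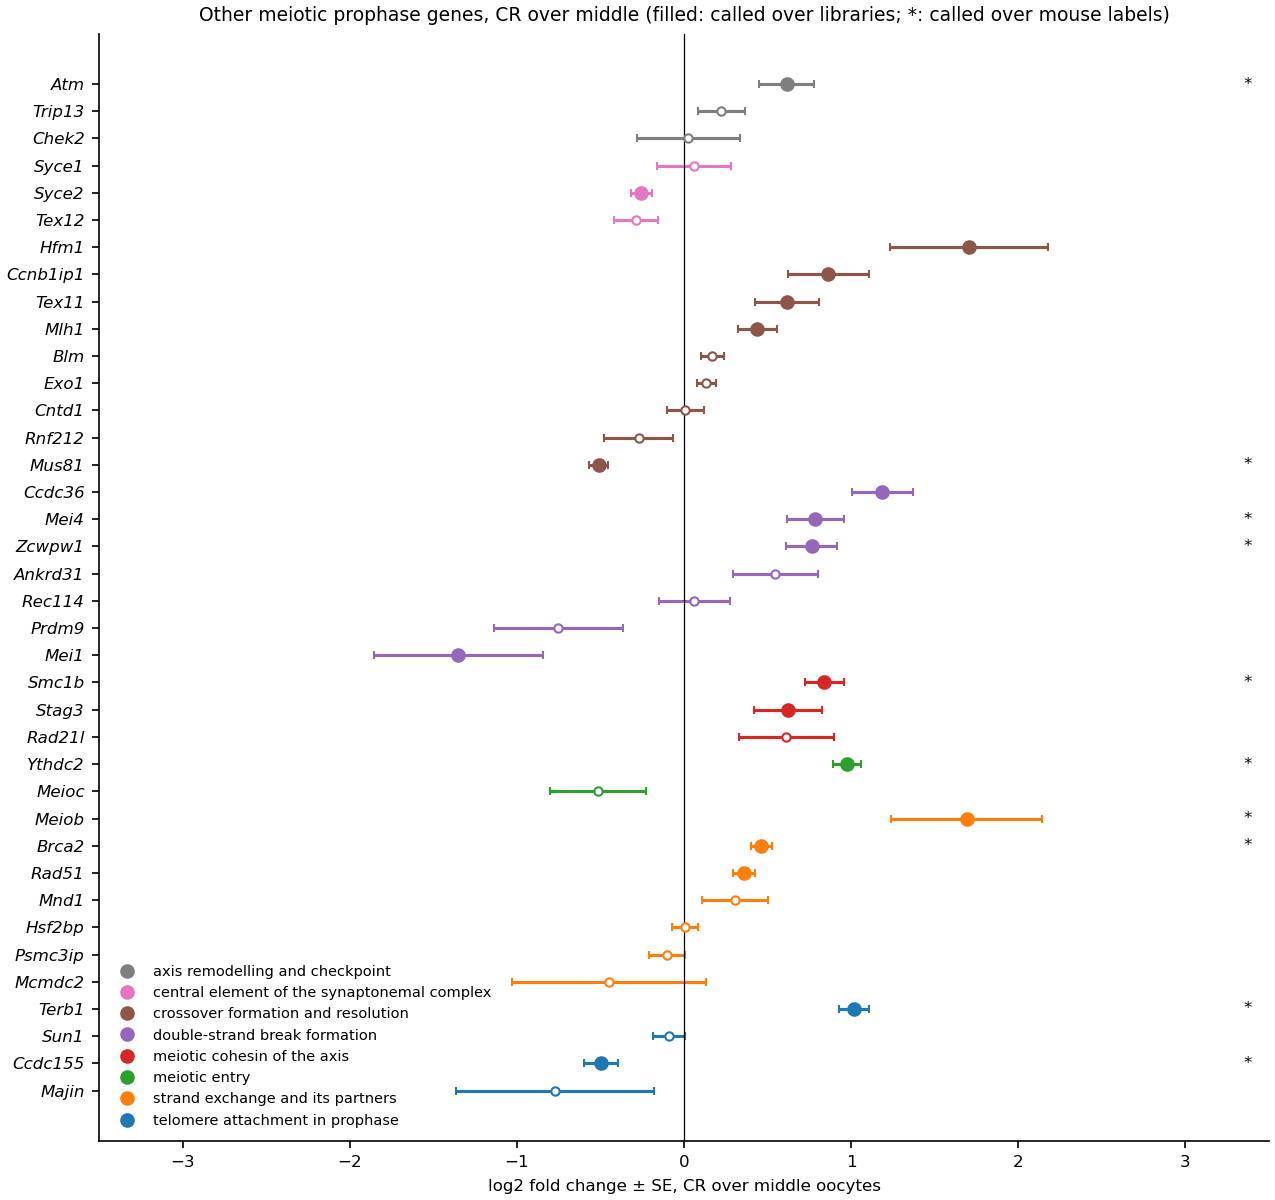
Log2 fold change ± SE of 38 other meiotic prophase genes in CR over middle oocytes, coloured by role, with filled points for genes called over libraries and a star for those also called over mouse labels. Terb1, Ythdc2, Mei4 and Smc1b are filled with a star to the right of 0, and Syce1, Syce2 and Tex12 lie near or below 0.

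Last, the genes whose levels followed those of Sycp2 and Msh4, the members with a mean of at least 5 CPM, most closely were named from Pearson's r of log2(CPM + 1) over the 127 oocyte libraries of the second set among 10677 genes. These r are descriptions, and the libraries share their depth and handling. For Sycp2 they were Naa30 (r = 0.488), Znrf2 (0.451) and Paip1 (0.448), with 0.731, 0.715 and 0.303 over the 73 libraries of the first set. For Msh4 they were Usp3 (0.389), Ccdc62 (0.344) and Suclg2 (0.339), with 0.489, 0.191 and 0.216 in the first set. No meiotic prophase gene of the lists was among the 6, and the r of Msh4 was below 0.4 for each gene in the second set.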

How the data were processed

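Single GV oocytes and cumulus cell pools of B6D2F1 mice were profiled by RamDA-seq (401 libraries). Per the submitters' processing notes and the methods, reads were aligned with HISAT2 2.0.5 to GRCm38 and counted with featureCounts 1.5.1 on GENCODE vM15. The authors counted multi-mapped reads, and the deposited values were treated like expected counts, since 36.8% and 35.1% of nonzero values were not whole (how reads were divided is not given in the sources used here), and RPKM, which the authors computed from them. Counts were rounded and tested with edgeR 4.0.16 (R 4.3.3, TMM, quasi-likelihood F test) on the libraries of the groups compared, keeping genes counted in 5 or more libraries, and again summed per mouse label (counted in 2 or more). The 0.05 threshold was applied to p-values adjusted over all genes. The log2 changes printed are edgeR's own, which are drawn towards 0 where counts are few. Each SE is the size of the coefficient before this step, divided by the square root of F. For genes with few counts it is therefore not exactly the error of the printed change. Alternatives were DESeq2 1.42.0, other filters and scaling, covariates, drawn-down counts and leaving out each mouse label. Replicates are separate libraries, often of 1 mouse, so p-values over libraries measure in part the spread within mice. The 2 sets were scaled separately, and for levels so were the 2 cell types. Pooled levels, their limit and marker sums use total counts without TMM. The limit given for genes with no count follows from the total counts and covers counting error only. The ± values are SDs between libraries or SEs from the edgeR test. They therefore include the spread between the libraries or mouse labels compared.

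Oocyte and cumulus libraries of the same number come from the same complex, as the labels say, so the complex was used as a replicate block in an alternative. Mouse numbers pair nothing. Members, the 43 other meiotic genes and the motifs were chosen with earlier results of these data known. All members are named. Of the other genes, those named per oocyte comparison are the up to 4 with the largest log2 change among called genes whose mean reached 5 CPM, over libraries and over mouse labels. Upstream sequence is from RefSeq.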

Additional observations from a re-analysis of the deposited data

Results flagged for a closer look

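Summed per mouse label, 48 groups of 4 to 8 mouse labels, each with a mean of at least 1 CPM, were checked for a mouse standing apart by Dixon's ratio, which chance passes in about 1 in 20 groups. In middle oocytes Dmc1 was 4.28 CPM in Middle3, a single oocyte, against 0.215 to 0.736 CPM in the other 3. At 2 months Mlh3 was 0.895 CPM in 1 mouse against 1.66 to 1.96 CPM in the other 4. Without hyperovulation Mlh3 was 3.73 CPM in 1 mouse against 1.28 to 2.06 CPM in the other 7.

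The effect of old age differed between the sets for Chek2, a checkpoint kinase gene of the wider list, by -1.53 on the log2 scale (edgeR adjusted p = 0.033 over libraries and 0.092 over mouse labels). Its log2 change was 1.07 in old against young oocytes and -0.44 between 2 and 14 months. For Chpt1, which shares exon bases with Sycp3, the difference was -1.30 (edgeR adjusted p = 0.029 and 0.094), from changes of 1.10 and -0.17. In the old oocytes of the first set the median cumulus marker percentage was 5.90%, and Chpt1 was 44.0 CPM in young cumulus cells on average. The part of cumulus RNA in these differences was not tested.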

How the results depend on the processing

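Of 247 counts of members under an alternative, 235 were equal to or within 1.5 times the reported one. This includes the many comparisons with 0 members called, where 0 under an alternative was taken as the same. For young against old oocytes the count of 1 became 0 over mouse labels, with a count in at least 1 library and with the cumulus marker share as covariate, and was 0 to 1 without single mouse labels. With edgeR's filterByExpr, which tested fewer members, 3 were called in middle against CR oocytes and 3 in each comparison of cumulus cells with oocytes. In young complexes the count was 3 to 7 without single mouse labels (3 without Young2), and Sycp1 there ranged from -0.93 to 0.16, turning direction without Young2. Drawn down to 500000 counts, members found in at least 50% of libraries fell from 8 to 5 in middle and in 9-month oocytes. With total counts in place of TMM, chosen after seeing the data, the median of all genes in cumulus cells against oocytes moved by -0.33 and -0.32 on the log2 scale, and no direction of a called member turned. With the oocyte-cumulus complex as a replicate block, 6 members were called in young and 7 in 2-month complexes, and Sycp1 in young complexes was lost (adjusted p = 0.053). Dmc1 in CR oocytes lost its call over mouse labels, without Middle2 and without Middle4, and Hormad1 was called (adjusted p = 0.043) with all deposited libraries. The cause was not tested for any of these.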
